A study of Drosophila melanogaster with 2 samples.

Results

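The genes described here are the translation initiation factor (eIF) and elongation factor (eEF) genes of Drosophila melanogaster, taken as every protein-coding gene whose symbol begins with eIF or eEF. There were 52 such genes, 44 eIF and 8 eEF, among 13968 protein-coding genes on the chromosome arms. They were examined for genomic sites bound by CG15336, a protein known by its annotation number, which was fused to eGFP in transgenic flies. Chromatin of whole prepupae aged 2 days was sonicated to fragments of 200 to 800 bp and precipitated with an antibody to GFP, and the precipitated DNA was sequenced. There was 1 group, with 2 biological replicates of the same transgenic strain. The labels do not name the promoter that drives the fusion or the cells that make it, and no untagged or input library was analysed here. Each signal is an average over all tissues of the animal, so a site bound in few cells and a site bound weakly in many cannot be told apart.

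Translation begins when initiation factors bring the initiator tRNA and the small ribosomal subunit to the 5′ cap of an mRNA and the complex scans to a start codon. The large subunit then joins, and elongation factors deliver each aminoacyl-tRNA and move the ribosome along. Most of these factors are needed in every growing cell, and Drosophila also carries duplicate copies of several of them, some used mainly in the testis.

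A gene was counted as having a peak when the summit of a deposited peak lay between 500 bp upstream of the gene start and the gene end, and as having a peak at a start when a summit lay within 500 bp of an annotated transcript start. In the authors' conservative list of 9295 peaks, made from both replicates, 14 of the 52 genes had a peak (26.9%, Wilson 95% interval 16.8 to 40.3), beside 27.1% of all protein-coding genes. At a start, 12 of 52 had a peak (23.1%, interval 13.7 to 36.1), beside 21.3% of all genes. Both shares lie within the counting error of the genome-wide ones. The 14 genes were eIF1A, eIF2D, eIF3c, eIF3h, eIF3k, eIF4E1, eIF4EHP, eIF4G2, eIF4H1, eIF5B, eIF6, eEF1alpha1, eEF1alpha2 and eEF1gamma. All of them but eIF4EHP and eEF1alpha2 had a peak at a start.

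The replicates gave different counts at starts. Replicate 1 had a start peak at 6 of the 52 genes (11.5%, interval 5.40 to 23.0, beside 15.6% of all genes), which were eIF2D, eIF3h, eIF4H1, eIF5B, eIF6 and eEF1gamma. Replicate 2 had a start peak at 12 (23.1%, beside 20.2% of all genes), which were those 6 genes and eIF1A, eIF2A, eIF4E1, eIF4E6, eIF4G2 and eEF1alpha1. The eIF4E1 summit of replicate 2 lay 491 bp from a start. Its peak overlapped the conservative peak at 542 bp, which was not counted at a start, and not the conservative start peak at 109 bp. In the whole window, 10 genes (19.2%, beside 21.8%) had a peak in replicate 1 and 14 (26.9%, beside 25.3%) in replicate 2. The less strict list of both replicates raised the counts to 17 in the window (32.7%, beside 30.0%) and 14 at a start (26.9%, beside 24.5%). It added start peaks at eIF2A, eEF2, the translocation factor, and eEF5, the hypusine-carrying factor, and 3 intron peaks at eIF5B. It lacked the start peak of eIF4E1. In no list did the interval of the 52 genes exclude the share of all genes. The intervals cover counting error over genes only.

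**Figure D1:**
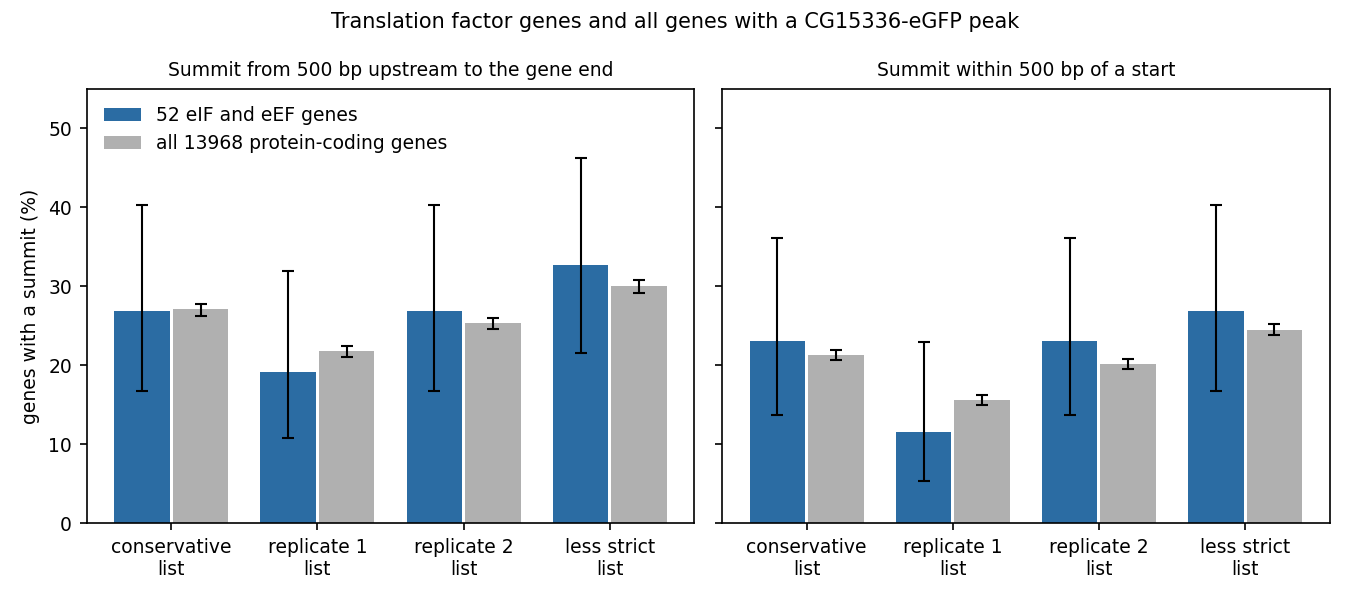
Share of the 52 translation factor genes (blue) and of all 13968 protein-coding genes (grey) with a peak summit, in percent, in the 4 thresholded peak lists, for the whole gene window (left) and for starts (right). Error bars are Wilson 95% intervals; the blue interval spans the grey bar in all 8 pairs.

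The sequences of some summits are shown because the description below refers back to them. They are chosen examples and do not cover all of the summits. Each line gives bases of the Release 6 reference (dm6), written 5′ to 3′ on the strand of the gene, with the summit in the middle. Capitals mark matches to any of 8 motifs searched on both strands, of which GAGAG (read CTCTC on the other strand), GAGAGAGA, AAAAAAAA and CACACACA are marked in the lines shown here, the last cut short by a base at the end of the eIF4E1 line. The first set was limited to summits poor in G and C, with no motif match, whose peaks were in the thresholded lists of both replicates. Other summits without a match differed. The eIF4EHP summit 29630 bp from its start was 16.8% G and C and was in neither replicate's thresholded list. The eIF1A summit 398 bp upstream of its start was 48.5% G and C.
eIF5B intron peak, chr3L:3432787-3432887, minus strand: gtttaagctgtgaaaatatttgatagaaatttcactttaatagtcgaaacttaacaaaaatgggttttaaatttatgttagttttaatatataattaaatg
eIF4G2 intron peak, chr3R:23817683-23817783, minus strand: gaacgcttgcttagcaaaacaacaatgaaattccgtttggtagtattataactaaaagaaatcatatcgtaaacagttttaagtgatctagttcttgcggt
eIF1A intron peak, chr3R:18275544-18275644, plus strand: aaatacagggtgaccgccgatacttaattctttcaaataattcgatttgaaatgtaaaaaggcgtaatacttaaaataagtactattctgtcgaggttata
eIF2D start peak, chr3R:29151873-29151973, minus strand: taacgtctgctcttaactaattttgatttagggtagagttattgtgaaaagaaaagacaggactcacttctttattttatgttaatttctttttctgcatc
eEF1gamma start peak, chr3R:29220026-29220126, plus strand: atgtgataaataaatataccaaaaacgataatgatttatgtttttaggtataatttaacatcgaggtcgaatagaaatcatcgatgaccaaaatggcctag
The second set holds examples of summits with GAGAG, and was not limited to peaks in both lists. The eIF4H1 and eEF1alpha2 peaks were in the thresholded lists of both replicates and the other peaks were not.
eIF4H1 start peak, chrX:16448875-16448975, plus strand: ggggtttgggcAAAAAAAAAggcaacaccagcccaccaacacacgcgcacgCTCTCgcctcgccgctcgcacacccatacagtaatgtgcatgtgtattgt
eEF1alpha2 intron peak, chr3R:31741459-31741559, plus strand: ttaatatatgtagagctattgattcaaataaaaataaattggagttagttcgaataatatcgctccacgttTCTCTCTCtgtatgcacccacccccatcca
eIF5B intron peak, chr3L:3455152-3455252, minus strand: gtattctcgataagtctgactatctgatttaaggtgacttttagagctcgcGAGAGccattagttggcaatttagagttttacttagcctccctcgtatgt
eIF4E1 5′ UTR peak, chr3L:9401249-9401277, minus strand: aatcaaaagcttcgCTCTCTCgCACACAC

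eIF6, which keeps free large ribosomal subunits from joining small ones too early, had the highest conservative peak of the set. The gene is 1056 bp long and lies on the minus strand of 2R, and the peak (chr2R:23850251-23850564, dm6) was centred on a summit 106 bp before the start. Its signal, on the authors' unstated scale, was 1075, rank 83 of 9295 peaks. In the replicates' own ranked lists the signal was 561.0 in replicate 1, rank 63 of 44200, and 515.3 in replicate 2, rank 125 of 65860. Both replicates placed it far above every other conservative peak of these genes. The summit lay 77 bp inside the noncoding gene asRNA:CR45928, which runs on the opposite strand, and inside ytr on the same strand. The G and C content within 50 bp of the summit was 37.6%, against 61.9% in the flanks centred 300 bp away on each side.

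eIF5B, the GTPase that joins the ribosomal subunits, held 9 of the 27 conservative peaks. It is 32320 bp long on the minus strand of 3L. Its start peak (chr3L:3460680-3460803) lay 118 bp upstream of the nearer of its 2 starts, in the 5′ UTR of the longer transcript. That peak had a conservative signal of 255.3, rank 1705, with 144.5 in replicate 1 and 111.7 in replicate 2. The other 8 peaks lay in introns, 5401 to 27766 bp downstream of a start, and the highest of the 9 was the farthest, with a signal of 329.4, rank 1176 (140.7 in replicate 1 and 179.0 in replicate 2). The 101 bp at that summit, printed above, were 19.8% G and C. The nearest coding start to 5 of the 8 intron summits belonged to sty, which encodes an inhibitor of receptor tyrosine kinase signalling, at 7902 to 15340 bp. A pair of the intron peaks overlapped each other, at signal ranks of 2330 and 8900, and both met the same single peak in each replicate. The intron peak at 5401 bp, with the GAGAG match printed above, was in neither replicate's thresholded list. The third gene of the subunit-joining group, eIF5, had none.

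**Figure D2:**
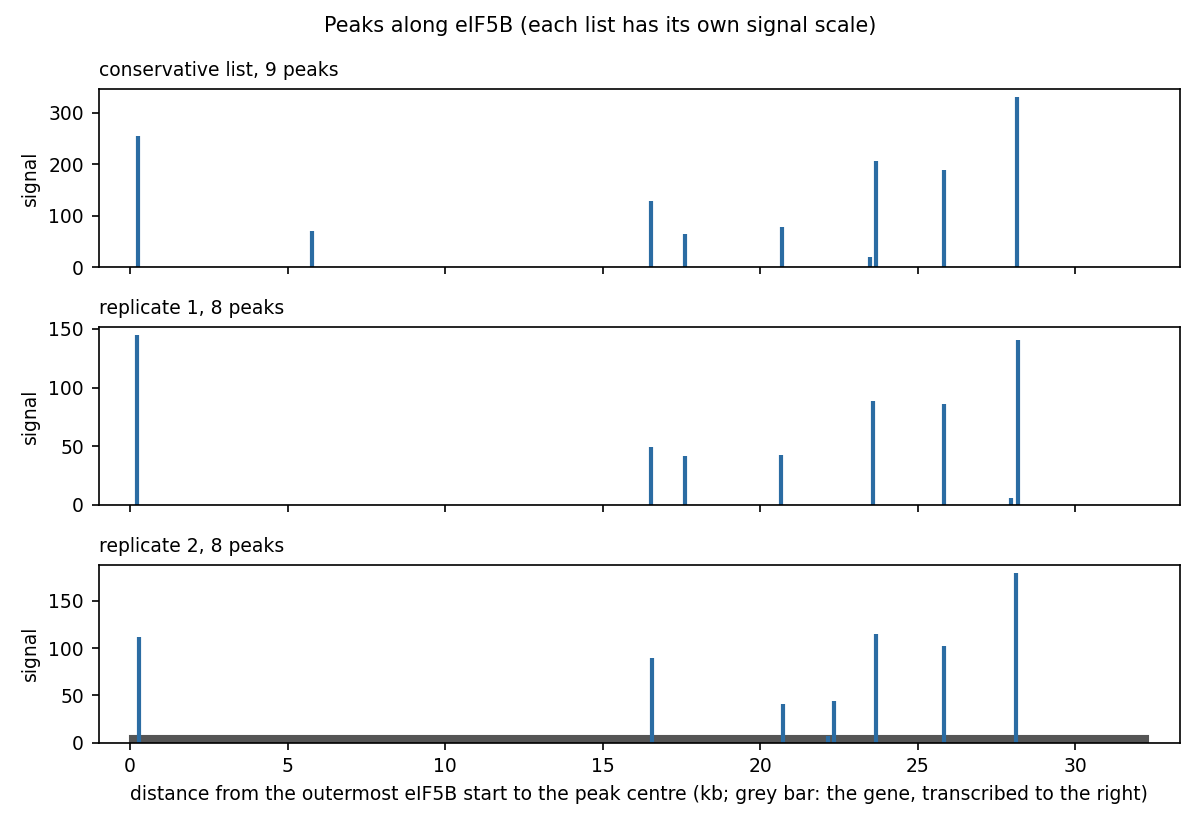
Peaks along eIF5B in 3 lists, the conservative one and the thresholded list of each replicate; the horizontal axis is the distance in kb from the outermost start to the peak centre, and the height of each line is the authors' signal on that list's own scale. The panels hold 9, 8 and 8 peaks, and the start peak and most of the intron peaks beyond 16 kb recur in all 3. The conservative peak 17251 bp from its nearest start has no counterpart in replicate 2. The replicate 2 peaks at 21964 and 21765 bp from it overlap no conservative peak. The count of replicate 1 includes an overlapping pair, at signals of 140.7 and 5.96.

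Of the factors that open the start codon and carry the initiator tRNA, eIF1A and eIF2D had peaks. eIF1A, which binds the small subunit during scanning, had an intron peak 896 bp downstream of its start (chr3R:18275402-18275785) with a signal of 187.8, rank 2659. Its replicate signals were 71.9 and 123.9, and the peak was in both thresholded lists. A weaker peak 398 bp upstream, at 61.7, rank 8523, lay 179 bp inside Vps39, a gene of the opposite strand, and was in the thresholded list of replicate 2 only. eIF2D, which can deliver initiator tRNA without the usual GTPase eIF2, had a single peak 129 bp upstream of its start (chr3R:29151731-29152114). The signal was 158.0, rank 3400, with 72.8 in replicate 1 and 85.1 in replicate 2, both past the threshold. The 3 subunits of eIF2 itself (eIF2alpha, eIF2beta and eIF2gamma) had no conservative peak, and none had a peak in a replicate's thresholded list. eIF2A, another noncanonical carrier, had a peak 77 bp upstream of its start in replicate 2, at 70.8, rank 4380 of that list, and a less strict peak at 92.2. The 5 subunits of eIF2B, the exchange factor that recharges eIF2 with GTP, had none in the conservative list or in either replicate's.

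eIF3, the large scaffold of the small-subunit complex, was represented by 3 of its 16 genes. eIF3h had a peak 297 bp downstream of its start, in an intron (chr2L:5052366-5052554), with a signal of 260.1, rank 1666, and 116.6 and 141.6 in the replicates. It was in both thresholded lists. The summit also lay 360 bp upstream of senju, which starts on the opposite strand. The reference bases at this summit, 45.5% G and C, held no motif match.
eIF3h start peak, chr2L:5052433-5052533, minus strand: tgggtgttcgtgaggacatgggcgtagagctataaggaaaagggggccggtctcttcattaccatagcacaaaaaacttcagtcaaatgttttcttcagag
eIF3c, a core subunit, had a weak peak 36 bp upstream of a start at 76.0, rank 7594, with replicate signals of 34.8 and 34.1. eIF3k, a peripheral subunit, had a weak peak 57 bp downstream of its start at 83.5, rank 7056, with replicate signals of 36.5 and 45.9. Neither peak was in a replicate's thresholded list, where the limit was an irreproducible discovery rate (IDR) of 0.01, a −log10 of 2.00. This rate estimates the share of peaks that would not repeat when peaks are ranked in paired data. For eIF3c the −log10 IDR was 1.96 in replicate 1 and 1.71 in replicate 2, and for eIF3k 1.80 and 1.75, just short of the limit. The other 13 eIF3 genes had no conservative peak, among them the duplicate pairs eIF3d1 and eIF3d2, eIF3f1 and eIF3f2, and eIF3g1 and eIF3g2.

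The cap-binding and helicase group (eIF4) had peaks at 4 of 13 genes. eIF4G2, a second eIF4G scaffold used in the male germ line, had an intron peak 1086 bp downstream of its start (chr3R:23817647-23817858) at 318.3, rank 1229, with 163.8 and 155.8 in the replicates. A weaker start peak, 188 bp downstream, was at 88.3, rank 6704, with 40.2 and 53.7, and was in the thresholded list of replicate 2 only. Both summits lay inside CG33111, which is annotated with the same starts, and inside CG34355 of the opposite strand, so they cannot be assigned to eIF4G2 alone. The general scaffold eIF4G1, on chromosome 4, had no peak in any list used here, the ranked ones included. eIF4H1, a cofactor of the eIF4A helicase, had a peak (chrX:16448733-16449116) 227 bp upstream of its second start and inside an intron of the longer transcript. Its signal was 197.0, rank 2471, with 102.2 and 93.9 in the replicates, and both passed the threshold. The summit was the richest in G and C of the 27, at 55.4%. Its duplicate eIF4H2 had none in any list. eIF4E1, the main cap-binding protein, had a pair of 5′ UTR peaks, 542 and 109 bp downstream of starts, at 98.3, rank 5982, and 73.4, rank 7800. The replicate signals were 33.0 and 59.3 for the first and 37.4 and 37.0 for the second. The first was in the thresholded list of replicate 2 and the second in neither. Of the other eIF4E genes, eIF4E3, eIF4E4, eIF4E5 and eIF4E7 had no thresholded peak, and eIF4E6 had peaks upstream of its start in replicate 2, the higher at 44.0.

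eIF4EHP binds the cap without eIF4G and represses chosen mRNAs in the embryo. It is 45884 bp long on the minus strand of 3R, and in the conservative list it held intron peaks 9797 bp (chr3R:24098971-24099354; 195.3, rank 2506; 100.2 and 103.3 in the replicates) and 29630 bp from its start (61.6, rank 8530, in neither replicate's thresholded list). The ranked list of both replicates, which contains every conservative peak, held a far higher peak at its start. This peak (chr3R:24109006-24109380) had a signal of 1588, rank 25 of 68761, and a −log10 IDR of 5, and its summit lay 231 bp upstream of eIF4EHP. It was also rank 16 in the ranked list of replicate 1, at 821.0, and rank 34 in that of replicate 2, at 774.4, yet it was in none of the thresholded lists. CG18428 starts 145 bp from the summit on the opposite strand, so the peak lies between a divergent pair. The bases at the summit were 18.8% G and C, beside 42.6% in its flanks.
eIF4EHP ranked-list start peak, chr3R:24109141-24109241, minus strand: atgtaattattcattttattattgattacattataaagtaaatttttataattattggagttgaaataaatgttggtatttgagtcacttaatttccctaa
The conservative list held 9295 of the 9470 ranked peaks at an IDR of 0.01 or less; 175 were missing (1.85%), of which 113 lay on 3R and 40 on 2L. The files used here do not state why. At the translation factor genes, 5 peaks were missing in this way: 4 at eIF4EHP, within 4861 bp, and 1 at eIF4A, the RNA helicase of the cap complex. The eIF4A peak (chr2L:5982215-5982598) lay 44 bp downstream of a start at 99.8, rank 6120, with 46.2 in replicate 1 and 55.3 in replicate 2. With all ranked peaks at an IDR of 0.01 or less, 15 of the 52 genes had a peak (28.8%, beside 27.4% of all genes) and 14 had one at a start (26.9%, beside 21.7%). This count was added after the data were seen.

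The elongation factors had peaks at 3 of 8 genes. eEF1gamma, a subunit of the exchange factor for eEF1alpha, had a start peak 96 bp upstream (chr3R:29219884-29220267) at 146.6, rank 3729, with 48.9 in replicate 1 and 88.7 in replicate 2, both past the threshold. Its bases, printed above, were 28.7% G and C. The paralogs eEF1alpha1 and eEF1alpha2 both encode the factor that delivers aminoacyl-tRNA. eEF1alpha2 had an intron peak 1849 bp from its nearest start (chr3R:31741317-31741700) at 130.5, rank 4299, with 63.1 and 65.4 in the replicates and both past the threshold. eEF1alpha1 had a 5′ UTR peak 61 bp downstream of a start (chr2R:11891991-11892374) at 100.5, rank 5833, with 32.7 and 65.8 in the replicates, past the threshold in replicate 2 only. Its other peak lay in an intron, 503 bp upstream of the nearest start, at 73.0, rank 7833, in neither replicate's list, and the snoRNA:Me28S-A1322 gene began 84 bp from its summit. The eEF1alpha2 and eEF1alpha1 summits all held GAGAG.

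Of the 27 conservative peaks, 16 (59.3%) met a thresholded peak in both replicates, close to the 58.8% of the 9295 peaks. Of the rest, 1 met a peak of replicate 1 only, 4 of replicate 2 only and 6 of neither. By gene, 10 of 14 had a peak found in both, and eIF3c, eIF3k, eIF4E1 and eEF1alpha1 did not. At starts 6 of 12 peaks were found in both replicates, and away from starts 10 of 15 (66.7%). Among all peaks of the list the shares were 56.2% at coding starts and 60.0% away from them. Many of the 15 were intron peaks of the single gene eIF5B, and its overlapping pair met the same peak in each replicate. The shares by position with the eIF5B peaks left out were not computed, so how far the split rests on that gene is not known. Every one of the 27 met a peak in both replicates' ranked lists, and the signals there rose together (Spearman rho 0.864, 27 peaks that share 2 libraries, with the overlapping eIF5B pair counted as 2, given as a description). The conservative list was itself limited by the IDR of both replicates, so both facts follow in part from how its peaks were chosen. The same values over all 9295 peaks were not computed.

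**Figure D3:**
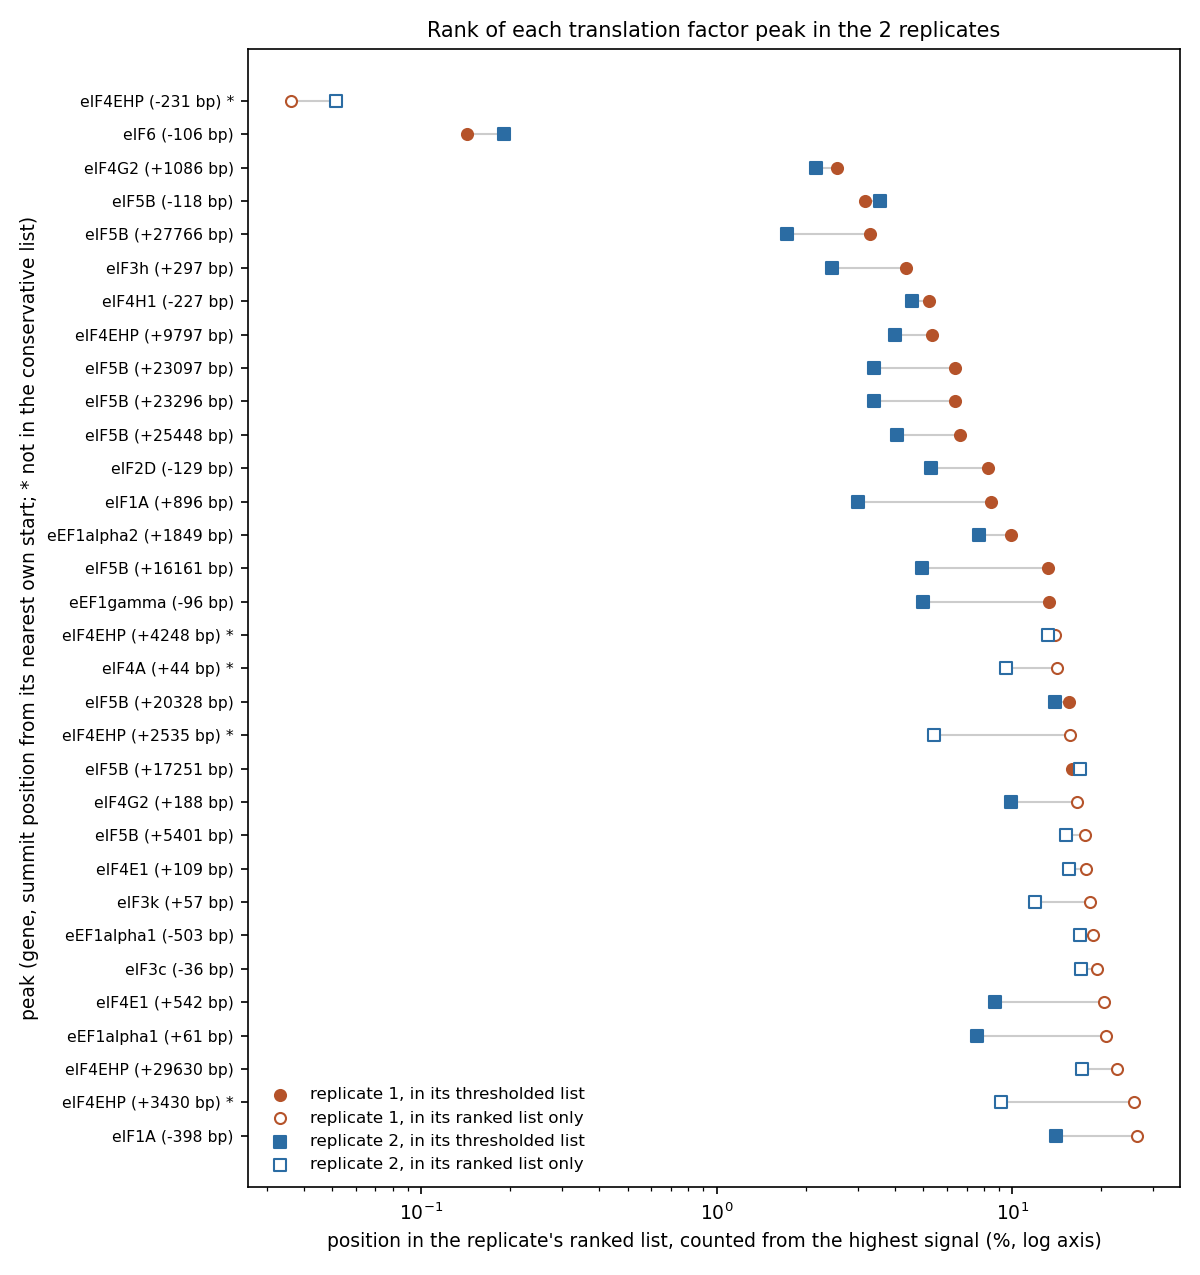
Rank of each translation factor peak in the ranked list of replicate 1 (circles) and replicate 2 (squares), as a percentage counted from the highest signal on a log axis (the lists hold 44200 and 65860 peaks, so equal ranks give a lower percentage in replicate 2); filled symbols are peaks also in that replicate's thresholded list and open ones are not. eIF6 and the eIF4EHP start peak lie far to the left of the rest in both replicates, the latter with open symbols.

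The median signal of the 27 peaks was 129.3, beside 123.1 for the list, and the signals ran from rank 8900 up to rank 83. Of them, 5 lay in the highest and 10 in the lowest of 4 equal sets of the list by signal. Introns held 16 summits, 5′ UTRs 7 and upstream sequence 4. Of the 12 start peaks, 7 lay upstream and 5 downstream, with a median position 66.0 bp upstream. For 17 of the 27 the nearest coding start was that of the translation factor itself. These placements were not counted over all peaks of the list, so they describe the 27 only.

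The bases within 50 bp of the summits were on average 36.3% G and C (SD 9.96, 27 peaks), against 43.9% in the flanks, and 19 of 27 summits were below their flanks. All conservative peaks averaged 33.9% (SD 10.4), against 44.3% in the flanks, and 7154 of the 9295 summits were below their flanks. GAGAG, on either strand, lay within 50 bp of 9 of the 27 summits (33.3%), and of 12.5% of all summits. Within 100 bp the shares were 33.3% and 25.6%. The 9 were both peaks of eEF1alpha1, both of eIF4E1, and single peaks of eEF1alpha2, eIF3c, eIF4G2, eIF4H1 and eIF5B. Their median signal was 88.3, beside 172.9 for the 18 without it. Over all peaks of the list the medians were 103.7 with GAGAG and 126.8 without. Of the 9, 2 (22.2%) were found in both replicates, and of the 18, 14 (77.8%), where among all peaks of the list the shares were 46.5% with GAGAG and 60.5% without. Many of the 18 were peaks of the single gene eIF5B. With its peaks left out, 7 of the 10 without GAGAG (70.0%) were found in both. The motif count moved with the list: around the summits of the replicates' own thresholded peaks at these genes GAGAG was found at 1 of 17 (5.88%, beside 10.5% of that list) and 2 of 26 (7.69%, beside 15.1%). CACACACA lay near 3 of the 27 (11.1%, beside 2.30%), AAAAAAAA near 2 (7.41%, beside 12.6%), and GAGAGAGA, which overlaps GAGAG, and CAGTGC near 1 each, beside 1.56% and 5.38%. TATCGATA, CACGTG and GGTCACACT lay near none, beside 0.290%, 0.581% and 0.290%.

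**Figure D4:**
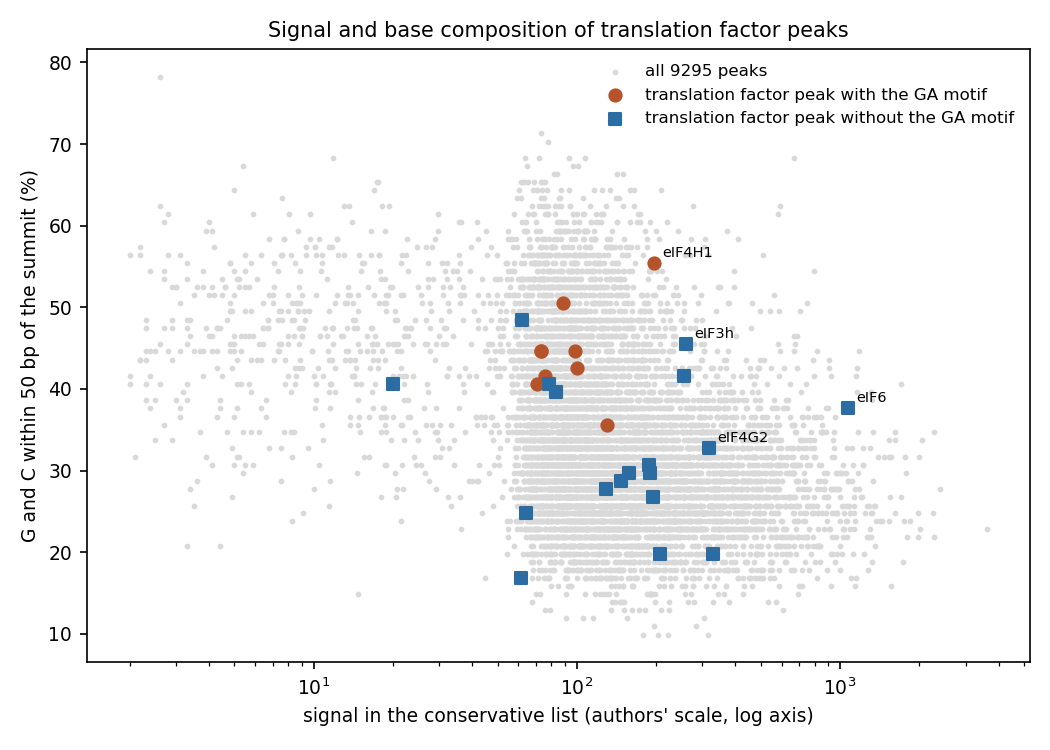
G and C content within 50 bp of the summit, in percent, against the authors' signal on a log axis, for all 9295 conservative peaks (grey) and the 27 translation factor peaks, with the GA motif (GAGAG on either strand; orange circles) or without it (blue squares). The circles reach a signal of 197.0, at eIF4H1, and the squares 1075, at eIF6.

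Of the 38 genes without a conservative peak, 30 had a summit in at least 1 of the 3 ranked lists (78.9%, beside 65.5% of all genes without a conservative peak). At an IDR of 0.1 or less in the ranked list of both replicates there were 11 (28.9%, beside 15.9%): eIF1, eIF2Bgamma, eIF2Bepsilon, eIF3a, eIF3b, eIF3m, eIF4A, eEF1beta, eEF2, eEF5 and eEFSec. Apart from eEFSec, the selenocysteine factor, at 1532 bp, these summits lay within 500 bp of a start. The nearest to the threshold after eIF4A were eIF1, with a −log10 IDR of 1.84, eEF5 with 1.83 and eIF3m with 1.69. Another 19 genes had a summit in a ranked list but none at this rate in the list of both: eIF2alpha, eIF2beta, eIF2gamma, eIF2A, eIF2Bbeta, eIF2Bdelta, eIF3d1, eIF3e, eIF3f1, eIF3g1, eIF3g2, eIF3i, eIF3j, eIF3l, eIF4E3, eIF4E5, eIF4E6, eIF5 and eEF1delta. A single replicate could rate them better. In the ranked list of replicate 2, eIF2A reached a −log10 IDR of 2.55 and eIF4E6 one of 2.09. The 8 with none in any ranked list were eIF2Balpha, eIF3d2, eIF3f2, eIF4B, eIF4E4, eIF4E7, eIF4G1 and eIF4H2.

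Genome-wide, the share of genes with a peak rose with gene length. With all genes split into 4 sets of equal size, from the shortest to the longest, 2 of 8, 3 of 20, 4 of 16 and 5 of 8 translation factor genes had a peak, beside 8.39%, 17.5%, 27.1% and 55.2% of all genes. The median length was 4113 bp for the 14 genes with a peak and 1789 bp for the 38 without. By number of annotated starts, 3 of 32 genes with 1 start had a start peak (14.9% of all such genes), 7 of 18 with 2 or 3 (35.7%) and 2 of 2 with 4 or more (65.5%). The genes held 0.102 summits per kb of window, and 0.0780 without eIF5B, beside 0.0834 for all genes. By chromosome arm, 1 of 5 genes had a peak on 2L (25.9% of all genes there), 4 of 13 on 2R (25.5%), 2 of 11 on 3L (28.2%), 6 of 15 on 3R (26.6%), 0 of 1 on chromosome 4 (12.5%) and 1 of 7 on X (30.6%).

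Just outside the window lay 3 peaks. The third-ranked peak of the whole conservative list, at 2282 (chrX:2703693-2704065), had its summit 678 bp upstream of eIF2Bbeta and 41 bp upstream of Ugalt. The other two were 824 bp upstream of eIF2Bdelta, at 99.8 and nearest to CG30414, and past the end of eIF3g1, at 238.0 and nearest to Smyd3.

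A polypyrimidine initiator built around TCT is known at the starts of fly ribosomal protein and other translation genes. TCTTT on the gene strand within 20 bp of a start was present in 16 of the 52 genes (30.8%), beside 7.04% of all genes and 67 of the 93 cytosolic ribosomal protein genes (72.0%). The 16 were eIF3c, eIF3d1, eIF3e, eIF3g1, eIF3i, eIF3l, eIF3m, eIF4A, eIF4E5, eIF4H1, eIF5B, eEF1alpha1, eEF1alpha2, eEF1beta, eEF2 and eEF5. Of the 12 genes with a conservative start peak 4 had it (33.3%), and of the 40 without 12 did (30.0%). Within 10 bp of a start the counts were 0 of 12 and 8 of 40.

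Other genes of translation were counted the same way in the conservative list, where 27.1% of all protein-coding genes had a peak. Regulators and factors outside the symbol rule had a peak at 15 of 27 (55.6%, interval 37.3 to 72.4), cytosolic aminoacyl-tRNA synthetases at 9 of 20 (45.0%, interval 25.8 to 65.8), cytosolic ribosomal protein genes at 41 of 93 (44.1%, interval 34.4 to 54.2) and mitochondrial ribosomal protein genes at 18 of 73 (24.7%, interval 16.2 to 35.6). The share of 26.9% for the eIF and eEF genes was within the intervals of the synthetases and the mitochondrial group and below those of the others. Its own interval, 16.8 to 40.3, overlapped the interval of each of these lists. No test of these differences was made, and gene length was not matched between the lists. For the cytosolic ribosomal protein genes the count fell to 14 in replicate 1 (15.1%), below the 19.2% of the eIF and eEF genes and the 21.8% of all genes there. In replicate 2 the count was 38 (40.9%), above the 26.9% of the eIF and eEF genes and the 25.3% of all genes there.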

How the data were processed

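Peaks were called by the authors for each replicate and for both together on dm6, per the labels and the deposited listing; which aligner and peak caller they used is not given in the sources used here. The deposited files give each peak's signal, whose scale is not stated, and its summit offset from the peak start. The ranked lists also give, from their values, the −log10 of the global IDR, and every peak of the conservative and replicate lists that the authors deposited had at least 2.00. The ranked lists of both replicates hold 16 further unnamed per-replicate columns, left out here. Files of peaks give no read depth, so the depth is unknown.

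Summits were placed on Release 6 of the genome with Ensembl release 115 genes; transposable elements were left out. Coordinates are 1-based, and replicate overlap needed at least 1 bp. Signals were compared within a list only. Shares over genes have Wilson 95% intervals for counting error; no test over samples was possible with 1 group of 2 replicates, and none over genes was made. Each gene with a conservative peak was named with its values and each gene without was named; of other genes, those that share a peak or lie next to a peak just outside the window were named. The members and lists were chosen with earlier results of these data known. Of the listed regulators, Adam is a synonym of eIF3j and was counted there, and Gcn1 and Tor were not matched in the annotation. The code ran in Python 3.11.15 with pandas 2.3.3, numpy 2.4.6, matplotlib 3.10.9 and scipy 1.17.1, and the placement of summits was tested on simulated data.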

Additional observations from a re-analysis of the deposited data

Results flagged for a closer look

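The ranked list of both replicates held 5 peaks at translation factor genes that passed an IDR of 0.01 and were absent from the conservative list and from both thresholded lists of single replicates. They were flagged because they are signal outside the lists the counts rest on. The start peak of eIF4EHP, 231 bp upstream of its start, had a signal of 1588. Of the intron peaks of eIF4EHP, the peak 2535 bp from the start had 119.2, that at 4248 bp had 92.4 and that at 3430 bp had 79.2, and all 3 had Syx1A as their nearest coding start. The 5′ UTR peak of eIF4A had 99.8. No conservative peak lay in the 13271 bp between the 2 conservative peaks that flank the eIF4EHP run, and the 4 ranked peaks there past the threshold were those named. The reason for their absence was not tested.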

How the results depend on the processing

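The number of translation factor genes with a peak in the window, 14, stayed between 10 and 17 under each alternative run: each replicate alone, the less strict list, an IDR of 0.001, peak intervals in place of summits, windows of 200 and 1000 bp, overlapping peaks reduced to the highest, peaks nearest to the gene's own start, and all ranked peaks at an IDR of 0.01. For all genes the number in the window, 3779, ran from 2599 at an IDR of 0.001 to 4190 in the less strict list. The number of translation factor genes at a start, 12, was 6 at an IDR of 0.001 (11.5%, beside 12.7% of all genes). It was 6 to 12 with each replicate left out and 8 to 14 in the other runs. Peak intervals gave the 8 (15.4%), and the 200 bp window gave 9 (17.3%, beside 14.6% of all genes). For all genes the number at a start, 2980, was 1777 at an IDR of 0.001 and 1670 with peak intervals. The median peak lay at 46.9% of the list from the top, at 56.3% in the less strict list and at 42.9% to 47.3% with each replicate left out. The share of summits with any of the 8 motifs, 40.7% beside 29.7% of all peaks, was 22.2% within 25 bp (all peaks 15.9%), 63.0% within 100 bp (54.9%), and 11.8% to 26.9% with each replicate left out, where it was below all peaks: 11.8% beside 27.1% in replicate 1 and 26.9% beside 32.3% in replicate 2. The TCTTT share, 30.8% beside 7.04% of all genes, was 15.4% beside 3.39% within 10 bp. The cause of these shifts was not tested. No paired analysis was possible because the 2 replicates form 1 group. Read depth is unknown, so a gene without a peak is not shown to be unbound.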
